A study of Mus musculus with 20 samples.

Results

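The SF3B and SF3A complexes were examined as 10 subunit genes out of 37620 genes counted in mouse bone marrow. The members were taken by name: Sf3b1, Sf3b2, Sf3b3, Sf3b4, Sf3b5, 0610009D07Rik (the p14 subunit) and Phf5a for SF3B, and Sf3a1, Sf3a2 and Sf3a3 for SF3A. All 10 were found in the gene count table and all 10 passed the filter on low counts in each comparison. RNA sequencing of 20 recipient mice gave 4 groups of 5: marrow expressing U2AF1(WT) or the mutant U2AF1(S34F), each after sudemycin D6 or vehicle. All groups carried a doxycycline-inducible transgene together with the rtTA activator, and only the transplanted donor cells carried it. Every mouse was a lethally irradiated congenic recipient with more than 6 weeks of engraftment, fed doxycycline chow at 625 ppm for 7 days. Sudemycin D6 or vehicle was infused intravenously on 5 of those days. The sequenced material was whole bone marrow, a mixture of cell types, and donor marrow was pooled from several mice before transplantation.

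SF3B and SF3A are the protein complexes that turn the U2 small nuclear ribonucleoprotein (snRNP) into its active form. SF3A bridges the core of the particle to SF3B, and SF3B holds the branch point adenosine against the U2 RNA at the intron end where U2AF1 recognises the AG dinucleotide. Sudemycins are synthetic splicing modulators that bind SF3B1, in the pocket it forms with PHF5A, so the 10 genes encode the drug target and its partners.

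Every member junction called in any comparison lay in 1 intron of Sf3b1 or 1 intron of Sf3b3 and either joined or skipped an unannotated exon there, and the sequences of these exons are shown first for that reason. Sf3b1, the large scaffold subunit that contacts the branch site, lies at chr1:55042013-55084322 on the minus strand of mouse build mm9. The 1813-base intron between its exons 4 and 5, of 25, contained a pair of exons that the annotation lacks, with ends drawn from junction reads. The first was 54 bases long at chr1:55072973-55073026, starting 193 bases after exon 4. The second was 56 bases long at chr1:55071713-55071768, and 1204 bases separated them. Each sequence is from the mm9 genome, 5′ to 3′ on the minus strand, with exon bases in capitals. The windows run over chr1:55072963-55073076, chr1:55071703-55071818 and, for the annotated exon 5 shown for comparison, chr1:55071387-55071456.
Sf3b1 first unannotated exon: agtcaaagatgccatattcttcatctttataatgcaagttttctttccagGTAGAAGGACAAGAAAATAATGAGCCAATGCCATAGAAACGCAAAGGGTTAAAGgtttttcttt
Sf3b1 second unannotated exon: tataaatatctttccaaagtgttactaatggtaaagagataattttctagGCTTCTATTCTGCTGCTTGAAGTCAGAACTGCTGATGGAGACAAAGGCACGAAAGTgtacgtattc
Sf3b1 exon 5, first bases: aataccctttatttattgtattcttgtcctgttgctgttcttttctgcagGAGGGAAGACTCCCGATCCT

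Both exons had an AG before them and a GT after them. In the Sf3b1 reading frame the first added a TAA stop codon at its base 18 and the second a TGA stop codon at its base 18. Translation would therefore end after 144 codons in either case, and also with both exons together, instead of the 1304 codons of the annotated protein. A stop codon far upstream of the normal one is a known trigger of nonsense-mediated decay, the pathway that removes such transcripts. The base before the AG was C at the first exon and T at the second. Of the 20 bases before that one, 65% were pyrimidines at the first exon and 40% at the second, compared with 80% at exon 5. Over the 165339 annotated acceptors among the annotated junctions reported for these mice the median was 75%. Of these acceptors 83.4% had at least 65% pyrimidines and 99.8% at least 40%.

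Sf3b3, the beta-propeller subunit that binds SF3B1, lies at chr8:113334139-113370703 on the minus strand. Its 5237-base intron between exons 11 and 12, of 26, contained one unannotated exon of 29 bases at chr8:113353419-113353447. The windows shown run over chr8:113353409-113353497 and, for the annotated exon 12, chr8:113350127-113350196, in the same notation.
Sf3b3 unannotated exon: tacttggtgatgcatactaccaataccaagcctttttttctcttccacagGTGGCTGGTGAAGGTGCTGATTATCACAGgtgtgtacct
Sf3b3 exon 12, first bases: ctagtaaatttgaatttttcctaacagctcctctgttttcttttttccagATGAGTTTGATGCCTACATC

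The Sf3b3 exon placed a TGA stop codon at its base 9, which would end translation after 470 codons instead of 1217. It was also bounded by AG and GT. The base before its AG was C and 80% of the preceding 20 bases were pyrimidines, compared with 95% at exon 12. Of the 165339 annotated acceptors above, 35.1% had at least 80% pyrimidines and 2.88% at least 95%.

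The total gene count of a mouse ran from 41145892 to 62138138 (median 51836276) and its total of junction reads from 34384214 to 64813149. The mouse gene U2af1 averaged 36.1 CPM (counts scaled to a common library size, with TMM factors) in U2AF1(WT) vehicle mice. It averaged 42.7 CPM in U2AF1(WT) mice given sudemycin D6, and 50.96 and 54.6 CPM in U2AF1(S34F) vehicle and drug mice. Human and mouse U2AF1 reads were not separated here, so these are not levels of the transgene. The female transcript Xist had 39145 to 78640 counts in each U2AF1(WT) mouse and 1 to 8 in each U2AF1(S34F) mouse, and 4 Y-linked genes together had 0 to 4 and 10270 to 15034 counts, respectively. Genotype and sex therefore cannot be told apart in any comparison of the genotypes, whereas both drug comparisons were made within 1 sex. Summed markers of neutrophils, monocytes, B cells, erythroid cells, megakaryocytes and stem and progenitor cells were detected in all groups, with all or all but 1 gene of each list over 1 CPM.

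Expression per length of transcript ranged widely among the 10 subunits. Over all 20 mice, Sf3b1 had the highest level at 119.7 ± 8.88 RPKM (CPM per kilobase of exon; mean ± SD, n = 20). Sf3b2, the subunit that binds Sf3b4, followed at 111.3 ± 13.2 RPKM. Sf3b1 exceeded Sf3b2 in 16 of 20 mice, and their ranges overlapped. Sf3b3 averaged 43.2 RPKM and 0610009D07Rik, which contacts the branch point adenosine, 39.9 RPKM, with Sf3b3 the higher in 11 of 20 mice. The small subunits Sf3b5 and Phf5a averaged 30.8 and 30.2 RPKM, and Sf3b5 was the higher in 11 of 20 mice. The SF3A genes were lower, with Sf3a3 at 17.0, Sf3a1 at 10.5 and Sf3a2 at 6.40 RPKM. Sf3b4, an RNA-binding subunit, was at 7.38 RPKM and exceeded Sf3a2 in 17 of 20 mice. The remaining neighbours in this order were separated in all 20 mice, except that 0610009D07Rik exceeded Sf3b5 in 17.

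**Figure D1:**
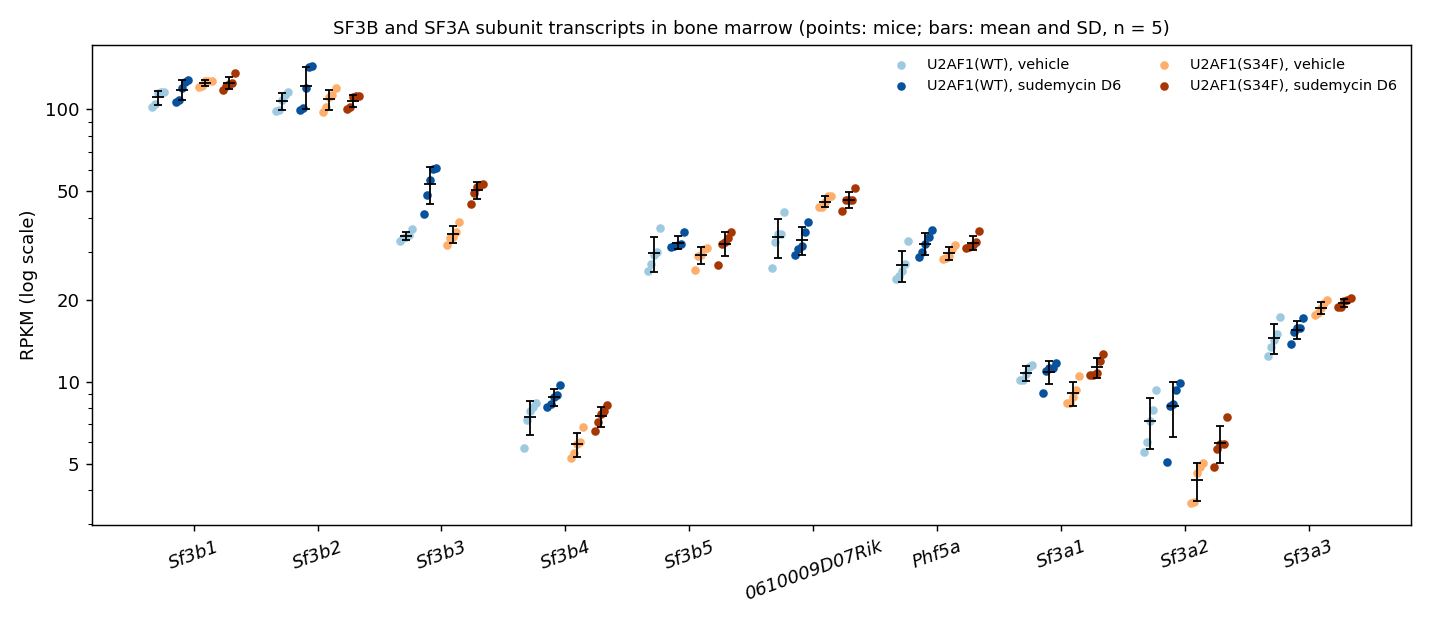
Expression level of each subunit gene in RPKM (log axis) in every mouse, by group. Points are mice and bars are group means of 5. Sf3b1 and Sf3b2 lie near 110 RPKM and Sf3a2 and Sf3b4 below 10 RPKM, and Sf3b3 is higher in both sudemycin D6 groups than in either vehicle group.

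The first question was whether sudemycin D6 changed the transcript levels of its own target complex. In U2AF1(WT) marrow Sf3b3 was the 1 member of 10 called at an edgeR FDR under 0.1. Of 14763 tested genes 3.07% were called, 1.18% higher and 1.89% lower. In data simulated for this comparison, 0 of 200 genes given a log2 fold change of 0.3 were recovered, and 68 of 200 given 0.58. A member not called can therefore still have changed by amounts of this size. Sf3b3 measured 150, 154, 155, 157 and 165 CPM in the 5 vehicle mice and 187, 221, 250, 275 and 276 CPM in the 5 sudemycin D6 mice. The drug group lay wholly above the vehicle group. The means were 156.1 ± 5.69 and 242.1 ± 38.0 CPM (SD, n = 5 each), a 53.1% rise (log2 fold change 0.61, SE 0.11; edgeR FDR 0.0136).

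In U2AF1(S34F) marrow 4 of 10 members rose with sudemycin D6 and none fell, where 10.8% of 14714 tested genes were called, 4.94% higher and 5.85% lower. Sf3b3 was again among them, at 145, 154, 155, 162 and 175 CPM with vehicle and 205, 224, 237, 241 and 242 CPM with drug. The groups were again apart. The means of 158.2 ± 11.3 and 229.7 ± 15.8 CPM gave a log2 fold change of 0.54 (SE 0.07; edgeR FDR 0.00123).

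Sf3a1, the subunit that binds both Sf3a2 and Sf3a3 within SF3A, measured 51.2, 51.4, 54.1, 57.4 and 64.6 CPM with vehicle and 64.9, 65.1, 65.9, 73.3 and 77.8 CPM with sudemycin D6 in U2AF1(S34F) mice. The groups touched without overlapping (log2 fold change 0.31, SE 0.08; edgeR FDR 0.0370). In U2AF1(WT) mice Sf3a1 had means of 66.0 and 66.6 CPM and a log2 fold change of -0.01, whose sign turned under another scaling. Sf3b4 rose from 12.7 ± 1.32 to 16.1 ± 1.37 CPM in U2AF1(S34F) mice (log2 fold change 0.34; edgeR FDR 0.0422), with 1 vehicle mouse above the lowest drug mouse. Sf3a2, a zinc finger subunit of SF3A, rose from 11.5 ± 1.84 to 15.8 ± 2.48 CPM (log2 fold change 0.45; edgeR FDR 0.0605), and its groups overlapped. Without U2AF1(S34F) sudemycin D6 replicate 2 neither Sf3b4 nor Sf3a2 was called (edgeR FDR 0.110 and 0.114). The Sf3a2 call was also lost without sudemycin D6 replicate 9 or 10 or vehicle replicate 3 (edgeR FDR 0.101 to 0.129) and in 1 model of all 20 mice (edgeR FDR 0.161).

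Sf3b1, the subunit the drug binds, was not called in either genotype. It measured 633, 650, 710, 715 and 721 CPM with vehicle and 661, 671, 740, 781 and 797 CPM with drug in U2AF1(WT) mice. The groups overlapped, and the log2 fold change was 0.07 (95% confidence interval -0.13 to 0.27; edgeR FDR 0.821). In U2AF1(S34F) mice it was 0.00 (-0.13 to 0.13; edgeR FDR 0.984), with means of 772.6 ± 19.3 and 775.6 ± 41.9 CPM. Phf5a, which shares the drug pocket, had log2 fold changes of 0.24 in U2AF1(WT) mice (edgeR FDR 0.340) and 0.13 in U2AF1(S34F) mice (edgeR FDR 0.217). The median log2 fold change of the 10 members was 0.13 in U2AF1(WT) and 0.14 in U2AF1(S34F) marrow, beside 0.00 and -0.01 over all genes tested.

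No difference between the genotypes in the drug response was called for a member. The interaction of genotype and drug, fitted over all 20 mice, called 0 of 10 members with edgeR and 0 with DESeq2. Over all genes, edgeR called 0.013% of 15392 and DESeq2 called 116 of 23469. At an unadjusted p under 0.05 with edgeR the count of members was 1, beside 1144 of 15392 genes. It was Sf3a1 (difference of log2 fold changes 0.30, SE 0.11; edgeR FDR 0.505). For Sf3b3 the difference was -0.10 (95% confidence interval -0.36 to 0.17; edgeR FDR 0.926).

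Some cell type markers moved with the drug beside these results. The summed CPM of 3 stem and progenitor markers was 87.1 to 136.3 with vehicle and 54.6 to 115.5 with drug in U2AF1(WT) mice, and 115.4 to 153.6 and 81.0 to 108.7 in U2AF1(S34F) mice. The sum of 4 megakaryocyte markers was 37.3 to 61.8 with vehicle and 27.6 to 54.2 with drug in U2AF1(WT) mice, and 36.95 to 57.3 and 21.5 to 42.5 in U2AF1(S34F) mice. All 3 and all 4 markers, respectively, were over 1 CPM in every group. In U2AF1(WT) marrow 1 of 3 stem and progenitor and 1 of 6 B cell markers were called lower and no other marker was called. Of all 14763 genes tested there, 1.89% were called lower. In U2AF1(S34F) marrow 3 of 3 stem and progenitor, 2 of 4 megakaryocyte, 2 of 6 erythroid and 2 of 3 T cell markers were called lower and none higher. Of all 14714 genes tested there, 5.85% were called lower. The 4 monocyte markers had a median log2 fold change of -0.50 in U2AF1(WT) and 0.40 in U2AF1(S34F) marrow. None of them was called in either genotype or for the difference between the drug effects (smallest edgeR FDR for the difference 0.305). For the difference all 4 had an unadjusted p under 0.05 with edgeR, as did 1144 of 15392 genes. The summed CPM of the monocyte markers was 1293 to 2033 with vehicle and 1003 to 1450 with drug in U2AF1(WT) mice, and 922 to 1775 and 1439 to 2178 in U2AF1(S34F) mice. The part of these markers in the changes of the members was not tested. In whole marrow, fewer cells of a type and less RNA per cell cannot be told apart.

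**Figure D2:**
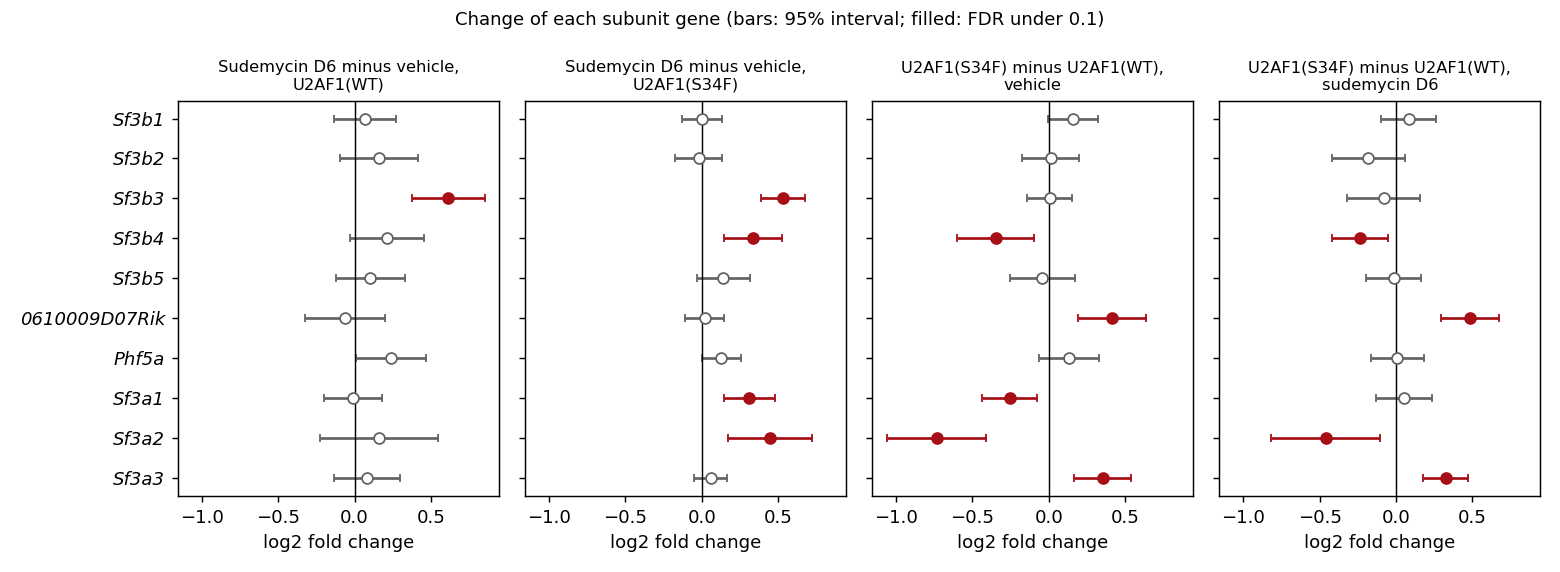
Log2 fold change of each subunit gene with its 95% confidence interval (edgeR) in the drug comparisons and the genotype comparisons, 5 mice per group. Filled points have an FDR under 0.1. Sf3b3 is highest in both drug comparisons, and Sf3a2 and 0610009D07Rik lie at opposite ends of the genotype comparisons.

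Of 36 genes that work with the complex, 1 was called with the drug in U2AF1(WT) marrow and 5 in U2AF1(S34F) marrow, beside 3.07 and 10.8% of all genes. Of 9 core proteins of the U2 snRNP, 0 were called in U2AF1(WT) marrow (0 also at an unadjusted p under 0.05 with edgeR) and 1 was called in U2AF1(S34F) marrow, the Sm protein gene Snrpd3 (log2 fold change 0.27; edgeR FDR 0.0875), with 5 at an unadjusted p under 0.05. Of 14 branch site factors and U2 partners, 0 were called in U2AF1(WT) marrow (2 at an unadjusted p under 0.05) and 1 in U2AF1(S34F) marrow, Cherp (log2 fold change 0.45; edgeR FDR 0.0297), again with 5 at an unadjusted p under 0.05. Of 13 proteins of the activated spliceosome, Snrnp200, the helicase that unwinds U4 from U6, rose in both genotypes. Its log2 fold change was 0.42 in U2AF1(WT) marrow (edgeR FDR 0.0219) and 0.27 in U2AF1(S34F) marrow (edgeR FDR 0.0160). Prpf8, the protein at the catalytic centre, and Gpkow rose in U2AF1(S34F) marrow by 0.25 and 0.34 (edgeR FDR 0.0257 and 0.0567). At an unadjusted p under 0.05 this list held 2 genes in U2AF1(WT) and 5 in U2AF1(S34F) marrow. Over all genes tested, edgeR gave an unadjusted p under 0.05 to 1959 of 14763 and 3299 of 14714, respectively. None of these partner genes was called lower with drug. The median log2 fold changes of the lists in U2AF1(WT) marrow were 0.02, 0.01 and 0.05, and in U2AF1(S34F) marrow 0.16, 0.05 and 0.03.

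The second question was whether the unannotated exons of Sf3b1 and Sf3b3 responded to the drug. Use of a junction was taken as its share of the reads at its splice sites. Of the 29 member junctions tested in U2AF1(WT) marrow 4 were called, where 0.777% of 106884 junctions were called at an edgeR FDR under 0.1 and a difference over 1 percentage point. In U2AF1(S34F) marrow 4 of 27 were called, where 0.816% of 107285 were. All these calls came from the 2 introns described, and junctions of 1 intron share reads, so they are not separate events.

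Reads from Sf3b1 exon 4 into the first unannotated exon fell with sudemycin D6 in both genotypes. In U2AF1(WT) mice they were 3.39, 4.69, 6.00, 6.37 and 7.77% of all reads leaving exon 4 with vehicle and 1.21, 1.37, 1.42, 1.57 and 1.78% with drug. Each vehicle mouse was above each drug mouse. The mean fell from 5.64 ± 1.67% to 1.47 ± 0.214% (SD, n = 5 each; edgeR FDR 2.55e-05; exact two-sided permutation p = 0.00794, the smallest that 5 against 5 mice allow).

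In U2AF1(S34F) mice the same share was 2.13, 2.62, 2.78, 2.79 and 2.82% with vehicle and 1.13, 1.15, 1.29, 1.46 and 1.53% with drug. The groups did not overlap. The mean fell from 2.63 ± 0.289% to 1.31 ± 0.177% (edgeR FDR 0.0113; exact two-sided permutation p = 0.00794). The share fell by 4.17 percentage points in the first genotype and fell by 1.32 in the second, and the difference between these drops was not tested. Both calls remained when any 1 mouse was left out.

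Reads from the second Sf3b1 exon into exon 5 were 4.13, 7.30, 8.55, 10.5 and 11.7% of the reads entering exon 5 in U2AF1(WT) vehicle mice and 3.01, 3.07, 3.18, 3.75 and 4.74% with drug. The groups overlapped through 1 vehicle mouse, replicate 2, which was also the lowest for the first exon. The mean fell from 8.42 ± 2.93% to 3.55 ± 0.728% (edgeR FDR 0.00474; exact permutation p = 0.0159). In U2AF1(S34F) mice the means were 5.45 ± 0.939% and 4.10 ± 0.497%, which was not called (edgeR FDR 0.433).

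The Sf3b1 junction that skips both exons rose from 84.3 ± 5.26% to 92.8 ± 0.769% of the reads at its sites in U2AF1(WT) mice (edgeR FDR 0.0621) and from 90.4 ± 0.816% to 93.4 ± 0.928% in U2AF1(S34F) mice (edgeR FDR 0.0149). The groups did not overlap in either genotype (exact permutation p = 0.00794 in each). The call in U2AF1(WT) mice was lost without vehicle replicate 1, 4 or 5 or any of the 5 drug mice (edgeR FDR 0.103 to 0.223). Per 10000000 junction reads of a mouse, reads into the first exon went from 25.3 ± 7.09 to 6.90 ± 1.02 in U2AF1(WT) mice and from 15.7 ± 2.78 to 7.48 ± 0.662 in U2AF1(S34F) mice. Skipping reads went from 413.1 ± 46.1 to 454.6 ± 66.0 and from 565.0 ± 49.4 to 558.5 ± 41.8 on the same scale.

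The ends of the Sf3b1 exons did not carry equal numbers of reads. Reads from exon 4 into the first exon numbered 31 to 148 per mouse, while reads leaving it numbered 0 to 48 to the second exon and 8, in 1 mouse only, to exon 5. U2AF1(WT) vehicle replicate 4, for example, had 107 reads into the first exon and 0 out of it. The acceptor of that exon was thus better covered than its donor, and its length of 54 bases rests on the fewer reads. Reads from the second exon to exon 5 numbered 65 to 244 per mouse, while reads into it numbered 17 to 84 from exon 4 in addition to those from the first exon. The stop codons given above lie at base 18 of each exon, so that of the first exon does not depend on where its donor is.

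**Figure D3:**
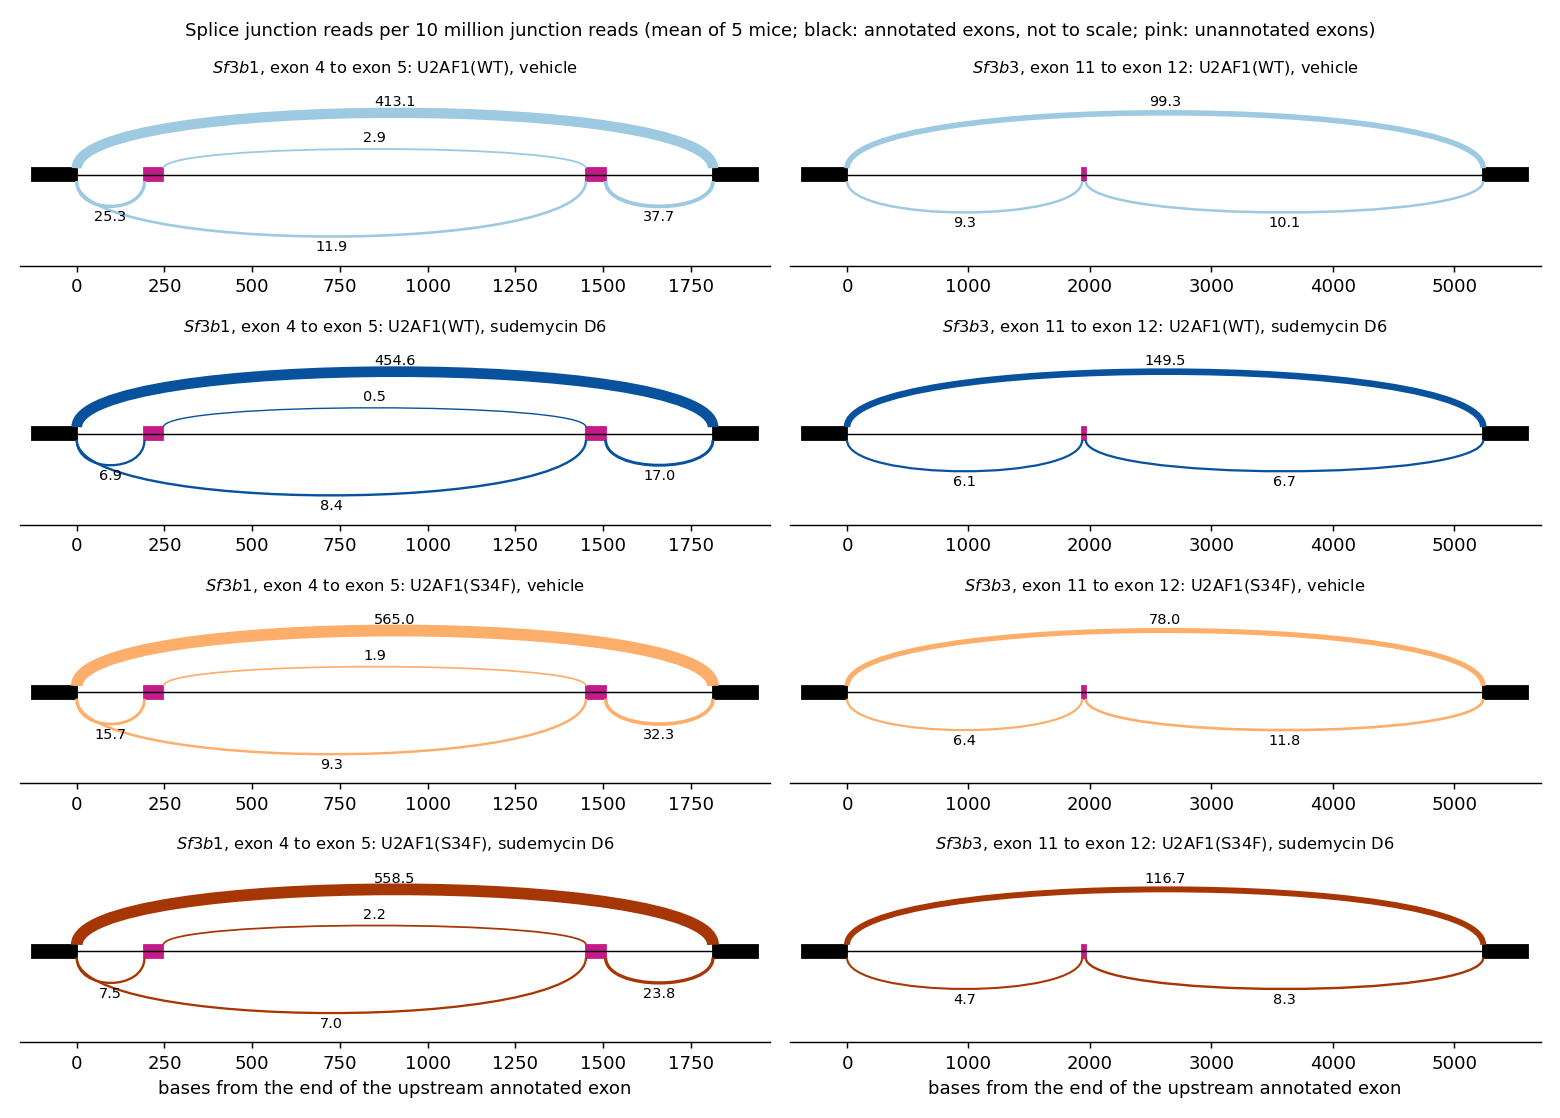
Introns of Sf3b1 and Sf3b3 that hold the unannotated exons, drawn to scale in bases from the upstream exon (the annotated exons at the ends are not to scale), with arcs for junctions in each group. Line width grows with the square root of the mean reads per 10000000 junction reads and the numbers give those means. Reads into the first Sf3b1 exon are 25.3 in U2AF1(WT) vehicle mice and 6.90 with sudemycin D6, and Sf3b3 skipping reads are 99.3 and 149.5.

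In Sf3b3 the junction that skips the 29-base exon rose with the drug in both genotypes. In U2AF1(S34F) mice it held 77.2, 78.4, 80.9, 84.4 and 85.9% of the reads at its sites with vehicle and 87.4, 88.3, 90.0, 90.3 and 94.5% with drug. The groups were apart, with means of 81.3 ± 3.75% and 90.1 ± 2.70% (edgeR FDR 0.0118; exact permutation p = 0.00794). In U2AF1(WT) mice it held 78.9, 82.8, 83.8, 85.3 and 86.3% with vehicle and 85.1, 89.2, 93.3, 93.4 and 97.6% with drug. The lowest drug mouse fell within the vehicle range. The means were 83.4 ± 2.83% and 91.7 ± 4.76% (edgeR FDR 0.0979; exact permutation p = 0.0238), and the call was lost without vehicle replicate 1, 3, 4 or 5 or drug replicate 9, 10 or 12 (edgeR FDR 0.152 to 0.296).

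Inclusion of the Sf3b3 exon, computed from the mean of its 2 junctions, was 7.38, 7.95, 8.43, 9.14 and 11.5% in U2AF1(WT) vehicle mice and 0.832, 3.39, 3.47, 5.73 and 8.06% with drug. In U2AF1(S34F) mice it was 7.60, 8.49, 10.1, 11.99 and 12.9% with vehicle and 2.85, 5.12, 5.25, 6.05 and 6.65% with drug. The groups overlapped in U2AF1(WT) mice through 1 drug mouse and were apart in U2AF1(S34F) mice. The junction out of the exon fell in U2AF1(S34F) mice from 12.98 ± 2.51% to 6.44 ± 2.21% (edgeR FDR 0.0340; exact permutation p = 0.00794), a call lost without vehicle replicate 3 or 11 or drug replicate 12 (edgeR FDR 0.110 to 0.1499). The junction into the exon was not called with drug in either genotype (edgeR FDR 0.338 and 0.217). In U2AF1(WT) sudemycin D6 replicate 12, 0 of 775 reads leaving exon 11 entered the exon. For that junction alone, counting error allows a share of up to 0.387%. The same mouse had 13 reads out of the exon into exon 12, so the limit is not one on use of the exon.

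Skipping reads of Sf3b3 went from 99.3 ± 8.12 to 149.5 ± 34.8 per 10000000 junction reads in U2AF1(WT) mice and from 78.0 ± 16.03 to 116.7 ± 15.6 in U2AF1(S34F) mice. Over the same comparisons the whole-gene level of Sf3b3 rose as given above, while that of Sf3b1 was not called. When limma was run on junction shares instead of the edgeR count model, 0 member junctions were called in either drug comparison, against 4 called with edgeR in each. With edgeR, 6 had an unadjusted p under 0.05 in each, beside 8852 of 106884 and 9005 of 107285 of all junctions. The number that limma called over all junctions is not given here, so its 0 cannot be set beside a share of all junctions.

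**Figure D4:**
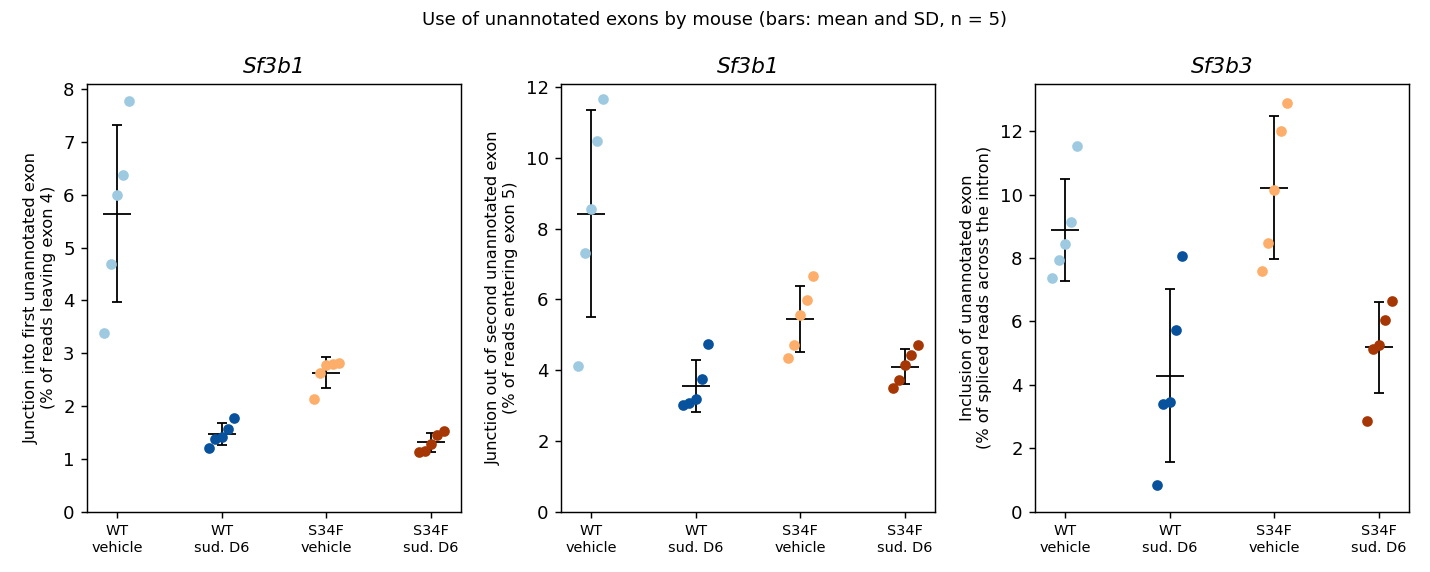
Shares of reads that use the unannotated exons in every mouse, in percent, by group: into the first Sf3b1 exon, out of the second Sf3b1 exon, and inclusion of the Sf3b3 exon. Points are mice and bars are group means of 5. For the first Sf3b1 exon all drug mice lie between 1.13 and 1.78%, below all vehicle mice of their genotype.

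The third question was how the mutant U2AF1(S34F) transgene compared with U2AF1(WT). Under vehicle 5 of 10 members were called, 2 higher and 3 lower, where 39.5% of 14817 genes were called, 19.7% higher and 19.8% lower. Sf3a2 was the member with the largest change, at 14.7, 15.97, 19.03, 20.95 and 24.8 CPM in U2AF1(WT) mice and 9.51, 9.64, 12.2, 12.9 and 13.4 CPM in U2AF1(S34F) mice. The genotypes did not overlap (log2 fold change -0.74, SE 0.15; edgeR FDR 0.00329). Sf3a1 and Sf3b4 were also lower, with log2 fold changes of -0.26 and -0.35 (edgeR FDR 0.0327 and 0.0365), and their groups overlapped.

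The p14 gene 0610009D07Rik measured 29.2, 36.4, 38.8, 38.8 and 46.8 CPM in U2AF1(WT) mice and 48.7, 49.0, 50.8, 53.5 and 53.7 CPM in U2AF1(S34F) mice under vehicle. All mutant mice were above all U2AF1(WT) mice (log2 fold change 0.42, SE 0.10; edgeR FDR 0.00914). Sf3a3, the remaining SF3A subunit, was also higher and apart, with a log2 fold change of 0.35 (edgeR FDR 0.00809). Sf3b1 had means of 685.8 ± 40.9 and 772.6 ± 19.3 CPM, and its groups did not overlap, but it was not called (log2 fold change 0.16, 95% confidence interval -0.00 to 0.32; edgeR FDR 0.122).

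Under sudemycin D6, 4 members were called between the genotypes, 2 higher and 2 lower, where 36.8% of 14677 genes were called, 17.2% higher and 19.6% lower. They were 0610009D07Rik (log2 fold change 0.49; edgeR FDR 0.00214), Sf3a3 (0.33; edgeR FDR 0.00500), Sf3b4 (-0.24; edgeR FDR 0.0532) and Sf3a2 (-0.46; edgeR FDR 0.0549). The groups were apart for the first 2 and overlapped for the others. Both of the lower calls were lost without U2AF1(S34F) replicate 6 or 12 or U2AF1(WT) replicate 8, and that of Sf3a2 also without U2AF1(S34F) replicate 2 or U2AF1(WT) replicate 12 (edgeR FDR 0.102 to 0.148). Sf3b4 was also not called without a filter on low counts (edgeR FDR 0.141). The median log2 fold change of the members was 0.01 under vehicle and -0.00 under drug, beside 0.00 and -0.03 over all genes.

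Use of the first Sf3b1 exon was lower in the mutant under vehicle. It fell from 5.64 ± 1.67% in U2AF1(WT) mice to 2.63 ± 0.289% in U2AF1(S34F) mice, with no overlap (edgeR FDR 0.00462; exact permutation p = 0.00794). This was the 1 call among 27 member junctions tested, where 2.47% of 108786 junctions were called, and limma on the shares did not call it (FDR 0.351). Under sudemycin D6 0 of 26 member junctions were called with edgeR and 0 with limma, where edgeR called 2.06% of 106696 junctions. At an unadjusted p under 0.05 with edgeR the count was 1, beside 11963 of all 106696. The vehicle and drug comparisons within U2AF1(WT) and the vehicle comparison of genotypes share the 5 U2AF1(WT) vehicle mice, whose shares were also the most spread out.

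Some cell type markers also differed between the genotypes. Under vehicle 3 of 7 neutrophil markers were called higher in the mutant, where 19.7% of 14817 genes were called higher and 19.8% lower. Monocyte markers were called lower in 2 of 4 cases, T cell markers in 1 of 3, erythroid markers in 1 of 6 and non-haematopoietic markers in 2 of 3. Of 4 megakaryocyte markers 1 was higher and 1 lower, and of 3 stem and progenitor markers 1 was higher. The sum of 7 neutrophil markers was 59986 to 68244 CPM in U2AF1(WT) vehicle mice and 82186 to 134279 CPM in U2AF1(S34F) vehicle mice. All 7 were over 1 CPM in both groups. None of the 6 B cell markers was called under vehicle (smallest edgeR FDR 0.143, with 0 at an unadjusted p under 0.05), and their sum was 33.8 to 122.1 CPM and 14.1 to 122.5 CPM in the 2 groups, which overlapped. Under sudemycin D6 4 of 6 B cell, 3 of 3 T cell, 3 of 6 erythroid, 1 of 4 megakaryocyte and 1 of 3 non-haematopoietic markers were called lower in the mutant and 2 of 7 neutrophil markers higher, while 2 of 4 monocyte markers were higher and 1 lower. Under drug 17.2% of 14677 genes were called higher and 19.6% lower. The part of the markers in the genotype results was not tested.

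Against U2AF1(WT) vehicle mice, U2AF1(S34F) mice given sudemycin D6 had 5 of 10 members higher and none lower, where 50.2% of 14761 genes were called, 25.1% higher and 25.1% lower. Sf3b3 had a log2 fold change of 0.56 (edgeR FDR 6.49e-05), 0610009D07Rik of 0.45 (edgeR FDR 0.00415), Sf3a3 of 0.43 (edgeR FDR 0.00146), Phf5a of 0.28 (edgeR FDR 0.0261) and Sf3b1 of 0.18 (edgeR FDR 0.0662). The Sf3b1 call was lost without U2AF1(S34F) replicate 9 or 12 or U2AF1(WT) replicate 1 (edgeR FDR 0.114 to 0.171). Of 27 member junctions 5 were called, where 4.34% of 108017 junctions were. The share into the first Sf3b1 exon was 1.31 ± 0.177% against 5.64 ± 1.67%, so it fell by 4.33 percentage points (edgeR FDR 4.31e-07; exact permutation p = 0.00794). The share into the Sf3b3 exon was 3.87 ± 0.943% against 8.48 ± 1.07% (edgeR FDR 0.0281; exact permutation p = 0.00794). This comparison shares its control mice with 2 of the others.

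The partner genes were also compared between the genotypes, where the shares of all genes called were those given above. Of the 9 core U2 snRNP proteins, 5 were higher and 0 lower under vehicle, and 7 and 0 under drug. Of the 14 branch site factors and U2 partners, which include U2af1 itself, 6 were higher and 5 lower under vehicle, and 5 and 4 under drug. Of the 13 activated spliceosome proteins, 4 were higher and 1 lower in each. The median log2 fold changes of the lists under vehicle were 0.52, 0.09 and 0.12.

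Apart from the junctions that skip the unannotated exons, which join annotated sites and are described above, no member junction between annotated sites was called, and neither was any built splicing event. The members had 314 junctions of 554616 in the table, of which 123 were annotated, 51 paired annotated sites in a new way and 140 had 1 unannotated site. Sf3b5, a single-exon gene, had none. The 48 member events tested in at least 1 comparison were cassette exons and an alternative 3′ splice site of Sf3a2. Of these, edgeR called 0 and limma called 0, and the number that limma called over all events is not given here. The minor form averaged 3.06% for the Sf3a2 site, 1.28% for a cassette exon of Sf3b2 and 0.874% or less for the others. A call needed a difference over 1 percentage point, so most of these events had little room for a call. The events tested numbered 36 to 42 per comparison, of which 0 or 1 had an unadjusted p under 0.05 with edgeR. Over all events such a p was given to between 3354 of 60914 and 6179 of 65340. Of all events, 0.458 and 0.622% were called in the drug comparisons and 1.54, 1.49 and 2.52% in the others.

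Reads on junctions with 1 unannotated site made up 1.23% of the junction reads of Sf3a2, 0.952% of Sf3b1, 0.943% of Phf5a and 0.862% of Sf3b3. For the other members with junctions the share was 0.0568 to 0.203%. Sf3a2 had the most mixed form outside Sf3b1 and Sf3b3. Its junction chr10:80261550-80263941 held 81.7% of reads on average over 20 mice and chr10:80261496-80263941 held 13.97%. The first form averaged 84.7 ± 7.65% and 85.3 ± 9.18% in U2AF1(WT) vehicle and drug mice and 79.0 ± 10.6% and 77.8 ± 10.97% in U2AF1(S34F) mice, none of it called (lowest edgeR FDR 0.634).

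In Phf5a the junction chr15:81696322-81700762 held 97.5% of reads, and in Sf3b2 the junction chr19:5288006-5288304 held 97.6%. The least uniform forms of the remaining members were at 99.1% or more. In Sf3b4, chr3:95980731-95980902 was at 99.1%, and the other form was 20 reads that ran into the neighbouring gene Sv2a. Cassette exons of Sf3a1, Sf3a3 and 0610009D07Rik were included at 99.1, 99.6 and 99.8%.

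Levels of the subunits did not all rise and fall together across mice, though those of some pairs did. Over 45 pairs the Pearson correlation of log levels across 20 mice, which share library and depth effects and the group differences above, ranged from -0.74 to 0.92 with a median of 0.23. With group means removed the range was -0.69 to 0.78 and the median 0.07. No such range was computed for pairs of other genes, so these values cannot be set beside one. The closest pair was 0610009D07Rik and Sf3a3 (r = 0.92, and 0.78 with group means removed), followed by Sf3b4 and Sf3a2 (0.87 and 0.73). Of 8387 genes, those most like Sf3b1 over the 20 mice were Mob1a (r = 0.92), Abhd13 (0.92), Atxn7l3b (0.90), Wbp4 (0.89) and Rala (0.88). The member most like Sf3b1 was 0610009D07Rik (r = 0.40), at rank 2155.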

How the data were processed

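Whole bone marrow RNA of 20 mice was sequenced from ribosomal RNA depleted, strand-specific libraries with paired reads of 126 bases. The authors aligned reads to mm9; TopHat2 2.0.8 and SAMtools are listed in the submitters' processing notes, and the counting program is not given in the sources used here. The deposited tables hold raw counts per gene and per splice junction, and no columns of other samples were present. Groups followed the labels, with 5 mice each. The mice are separate recipients of pooled donor marrow, so p-values measure the spread between these recipients.

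The quasi-likelihood test of edgeR 4.0.16 (R 4.3.3; TMM, filter on low counts, robust fit) was applied to gene counts, each comparison on its own 10 mice, with Benjamini-Hochberg adjustment over all genes tested and a call at an FDR under 0.1. CPM and RPKM were computed here, RPKM from the union of annotated exons. Splicing events between annotated sites, and the share of reads taken by each junction, were tested as one form against the alternatives with a coefficient per mouse and dispersion 0, for features averaging 10 or more reads in each mouse. A call needed an FDR under 0.1 and a difference over 1 percentage point. Junction shares were tested where the mean lay between 1 and 99%. The quasi-likelihood spread was trended on the amount of information per feature, a change made after simulated data gave too many false calls with the form first planned. For junctions called, an exact two-sided permutation test over mice was added after seeing the data. Its p is not adjusted and is 0.00794 whenever 5 against 5 mice do not overlap, so there it repeats the statement of no overlap. Unannotated exons were built from unannotated sites with at least 100 reads over all mice and at most 300 bases apart. Exon numbers, frames and sequences are from the GENCODE annotation and genome of mm9.

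Named genes and junctions were the members, every member junction called, the most mixed form of members without a call, called partner genes in the drug comparisons and the 5 genes most like Sf3b1. The members and lists were chosen with earlier results of these data known. Alternatives were limma 3.58.1, DESeq2 1.42.0, other filters and scalings, 1 model of all mice, the replicate number as a block, and leaving out each mouse. Figures were drawn with matplotlib 3.10.9 in Python 3.11.15. Scripts were tested on simulated data.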

Additional observations from a re-analysis of the deposited data

Results flagged for a closer look

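Of 64 groups of 5 mice examined, 2 had a mouse far from the other 4, where chance gives about 1 in 20, or 3.2. Sf3b5 measured 26.0 CPM in U2AF1(WT) sudemycin D6 replicate 6, while the others lay between 22.9 and 23.5 CPM. The share of reads into the first unannotated Sf3b1 exon was 2.13% in U2AF1(S34F) vehicle replicate 11, while the others lay between 2.62 and 2.82%. This mouse was still above all U2AF1(S34F) sudemycin D6 mice.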

How the results depend on the processing

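Counts of members called stayed at 0 or kept within 1.5 times their main value in 58 of 68 alternatives. The 68 include every setting for events, for junctions between genotypes under drug and for the interaction, where the main count was 0. They also include the permutation test, which was run only on junctions already called. Of the values of called members 28 of 128 lost the call under another setting and 44 of 330 without 1 mouse, while none turned its direction. With 1 model of all 20 mice, 2 member genes instead of 1 were called with sudemycin D6 in U2AF1(WT) marrow. Over all genes that model called 1072 of 15392, against 453 of 14763 in the main test. With limma on junction shares the member calls were 0 in both drug comparisons, 0 between genotypes under vehicle and 2 for U2AF1(S34F) with drug against U2AF1(WT) vehicle. The numbers that limma called over all junctions are not given here. With a difference over 5 percentage points the member calls were 2, 2, 0 and 2, and the numbers over all junctions are likewise not given here. The counts of these settings can therefore not be set beside a share of all junctions. The cause of the lower counts was not tested for either setting, beyond the smaller differences that the stricter limit leaves out by construction. Without 1 mouse, genes called ranged from 1 to 2 and from 2 to 4 with drug in U2AF1(WT) and U2AF1(S34F), from 5 to 6 and from 2 to 4 between genotypes under vehicle and drug, from 4 to 7 for mutant with drug, and stayed at 0 for the interaction. Junctions called ranged from 2 to 5 and from 3 to 4 with drug, from 1 to 3 and at 0 between genotypes, and from 3 to 7 for mutant with drug. Events called stayed at 0. With at least 20 reads per mouse the Sf3b3 skipping call in U2AF1(WT) marrow was lost (FDR 0.141).

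Replicate numbers shared by the genotypes did not pair the mice: correlations of same-numbered deviations ran from -0.27 to 0.53 and no mouse correlated best with its own number. With the replicate block, on mice whose number is in both groups, 4 member genes and 1 junction were called under vehicle and 2 genes and 0 junctions under drug, and events stayed at 0. Over all genes the block called 4632 of 14913 under vehicle and 3734 of 14728 under drug. The first Sf3b1 exon differed by -3.55 percentage points under the block (FDR 0.1496) and was not called. The 1 junction called under vehicle with the block was therefore a different one from that of the main test. The number that the block called over all junctions is not given here. Depth limits the unannotated exons: the Sf3b3 exon rested on 0 to 65 reads in and 13 to 97 reads out per mouse.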

Other observations

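One further Sf3b1 site was noticed after its values were seen. At exon 18, an unannotated acceptor at chr1:55055099 lies 4 bases after the annotated one at chr1:55055103 on the minus strand, joined to the same donor at chr1:55056471. The window chr1:55055084-55055153 of mm9 is given 5′ to 3′, with bases from the annotated acceptor on in capitals.
Sf3b1 tandem acceptors: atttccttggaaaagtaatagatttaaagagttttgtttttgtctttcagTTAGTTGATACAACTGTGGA

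The junction into the downstream acceptor took 6.63 ± 0.964% of the reads at its splice sites in U2AF1(WT) vehicle mice and 5.34 ± 1.504% with sudemycin D6. In U2AF1(S34F) mice it took 5.10 ± 1.04% with vehicle and 3.41 ± 1.86% with drug (SD, n = 5 each). Shares ranged from 5.15 to 7.48% in the first of these groups and from 0.113 to 4.59% in the last, without overlap. No comparison called it, and the lowest edgeR FDR was 0.311.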
